A study of Mus musculus with 6 samples.

Results

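The genes described here are the STAT transcription factors Stat2, Stat3, Stat5a, Stat5b and Stat6 and the SOCS-family feedback genes Socs1, Socs2, Socs3 and Cish. They were found by their gene name in the scanner files, and all 9 were present, as 15 of the 41174 probes and 9 of the 27573 gene names on the array. RNA came from primary mouse keratinocytes in 6 samples, each measured on 1 Agilent one-colour array. Cells of the 3 Anakinra samples received 5 ug/ml of Anakinra, a recombinant antagonist of the interleukin-1 (IL-1) receptor, and those of the 3 PBS samples received PBS. Both groups were keratinocytes of newborn wild type mice, transduced with v-ras-Ha, an oncogenic Ras, by an adenovirus at 10 viral particles per cell in the presence of Polybrene. The agent was added 5 hours after transduction and the cultures were kept for a further 3 days, with Anakinra replaced after 2 days. The preparation also took hair follicle buds, so follicle cells may be among the cells measured. The labels do not say whether the replicates came from separate animals or separate cultures. The p-values therefore measure the spread between these samples, which may be technical.

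STAT proteins wait in the cytoplasm until a cytokine receptor and its Janus kinase phosphorylate them; they then dimerise, enter the nucleus and switch on genes. SOCS proteins and CIS, the product of Cish, are themselves induced by STATs and then bind the receptors or the kinases and damp the signal, so their mRNA is widely read as a trace of recent STAT activity. In keratinocytes STAT3 is known for wound closure and skin tumour growth, and STAT6 for the response to interleukin-4 and interleukin-13. STAT activation is a phosphorylation, which an expression array does not measure.

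Values below are log2 intensities minus the array's own 75th percentile, so that 0 is that percentile, and changes are Anakinra minus PBS. Levels of different probes cannot be set against each other. A gene counts as past the threshold at a limma adjusted p under 0.05, with Benjamini-Hochberg adjustment over 16472 genes. The brightest passing probe stands for a gene.

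Depth on an array is signal over background. Between 55.6% and 86.5% of probes were well above background on the Anakinra arrays and between 62.5% and 71.0% on the PBS arrays, with Anakinra 2 the highest. Correlations between arrays of a group lay between 0.958 and 0.982 for Anakinra and between 0.995 and 0.996 for PBS. The SD over replicates was larger in Anakinra for 80.5% of 16405 genes with a value on every array. Over all genes 160 were higher and 132 lower in Anakinra, and 6 higher and 42 lower with each array scaled to its median. The keratinocyte label was checked against 10 markers, all of them measured, whose signals summed to between 1303 and 1468 times the 75th percentile in Anakinra and to between 1348 and 1493 times in PBS. Such a sum follows its brightest probes, here those of Krt5 and Krt14, and does not check the dimmer markers. Of the 10 markers, 4 had an unadjusted p under 0.05 in limma, where 16.1% of all genes did. In Anakinra 2 were higher, the differentiation keratins Krt1 and Krt10, and 8 did not pass. Adding the slide to the model ended both calls (limma adjusted p = 0.0595 for Krt1 and 0.0933 for Krt10). So did leaving out Anakinra 1 (0.0573 for Krt1 and 0.0755 for Krt10), PBS 1 (0.0873 for Krt1 and 0.126 for Krt10) or PBS 2 (0.0630 for Krt1 and 0.152 for Krt10), and for Krt10 also PBS 3 (0.101).

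Sequence around the start sites was read to show which of these genes carry recognition letters for the STATs themselves. RefSeq promoter windows on GRCm38.p6, 300 bases long and ending 50 bases past the start of transcription, were found for 8 of the 9 genes, with 2 starts each for Stat5a and Stat5b. Socs2 had no window, so its promoter was not searched. Both strands were searched for TTCNNNGAA, the letters most STAT dimers bind, which 8.3% of 32851 promoters hold, for TTCNNNNGAA, the wider form preferred by STAT6, held by 6.95%, and for GAAANNGAAA, the interferon response letters bound by the STAT2 complex, held by 3.44%. Windows of 4 feedback or STAT genes are printed 5′ to 3′ on the gene's strand because each holds such letters, which are in capitals. Cish (chr9:107296639-107296688, plus strand) holds 2 TTCNNNGAA matches, starting 1 and 12 bases into the transcript. Socs3 (chr11:117969492-117969540, minus strand) holds 1, starting at -154. Socs1 (chr16:10785584-10785639, minus strand) holds 2 GAAANNGAAA matches that overlap each other. Stat2 (chr10:128270256-128270317, plus strand) holds 1 GAAANNGAAA match, on the opposite strand, and 1 TTCNNNNGAA match next to it.
Cish: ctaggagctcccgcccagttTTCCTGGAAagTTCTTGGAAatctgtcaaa
Socs3: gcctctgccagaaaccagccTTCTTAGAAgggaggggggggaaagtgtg
Socs1: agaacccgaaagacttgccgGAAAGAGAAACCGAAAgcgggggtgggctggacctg
Stat2: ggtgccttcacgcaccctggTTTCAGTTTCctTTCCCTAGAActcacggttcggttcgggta
A match is a run of letters and not a measured binding site. These letters were absent from the windows of Stat3, Stat5a, Stat5b and Stat6. The NF-kB motif, bound by the factor that IL-1 activates, was searched on both strands as GGGRNNYYCC (R is A or G, Y is C or T). It is held by 8.46% of promoters and was found once, at 1 of the 2 starts of Stat5a.

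None of the 9 genes passed the threshold between Anakinra and PBS, against 1.77% of all genes tested. Changes ran from -0.35 for Socs1 and Socs2 to 0.42 for Stat5a, with 5 positive and 4 negative and a median of 0.07, beside a median of 0.01 over all genes. In limma, 1 of the 9 had an unadjusted p under 0.05 (Socs2), where 16.1% of all genes did. The 3 Anakinra values lay above all PBS values for 1 of the 9 (Stat6), against 12.5% of all genes, and below them for 2 (Socs1 and Socs2), against 13.8%. With each array scaled to its median, all 9 overlapped. In bulk RNA, fewer cells of a type and less RNA per cell cannot be told apart.

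**Figure D1:**
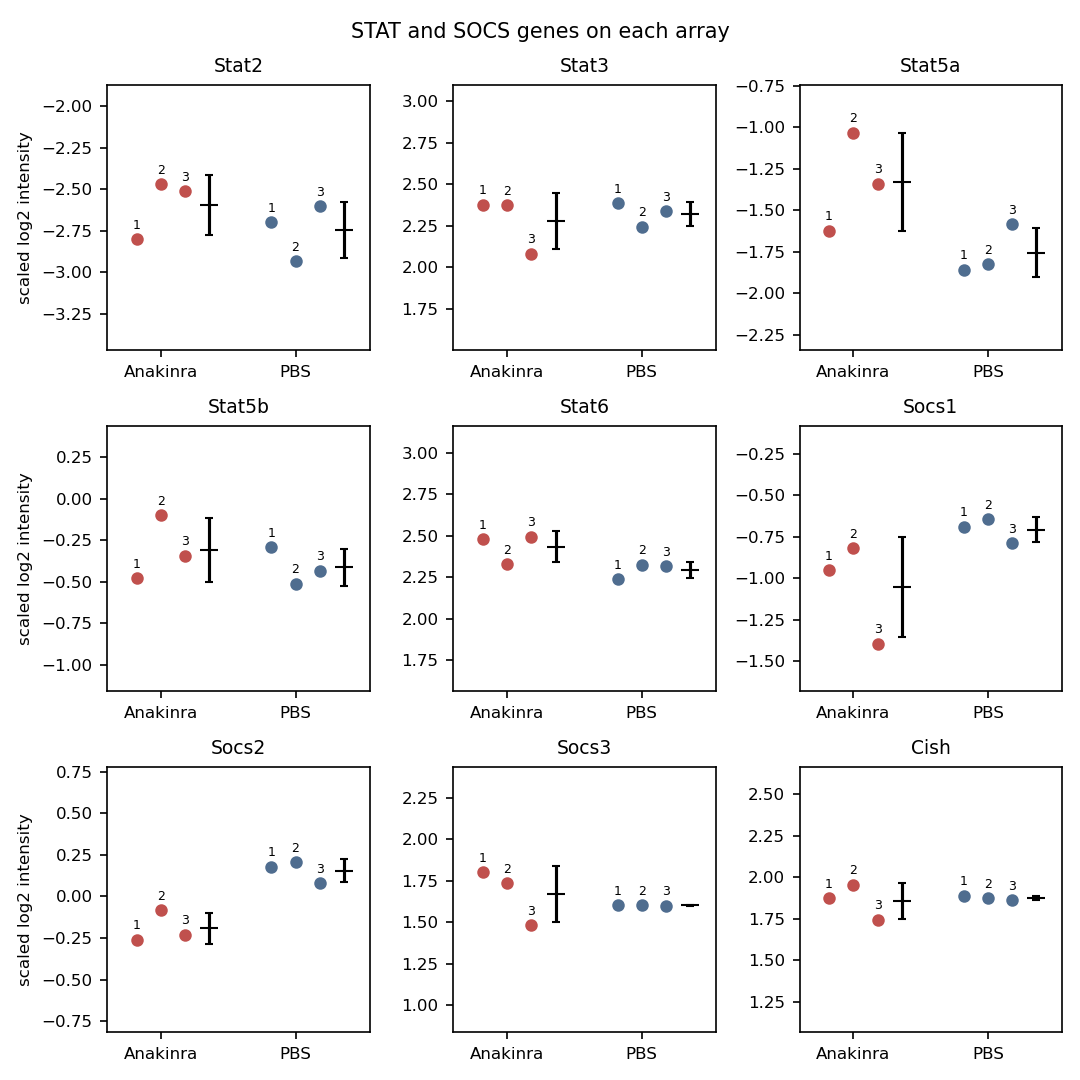
Scaled log2 intensity (0 is the array's 75th percentile) of the brightest probe of each STAT and SOCS gene on 3 Anakinra arrays (red) and 3 PBS arrays (blue), numbered by replicate, with bars for mean ± SD; all panels span the same log2 range. The groups are apart for Socs1, Socs2 and Stat6, and the Anakinra spread exceeds the PBS spread in all 9 panels.

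Among the feedback genes, Socs2, known for restraining growth hormone signalling through STAT5, had the smallest p. Its values were -0.26, -0.08 and -0.23 in Anakinra, against 0.18, 0.21 and 0.08 in PBS. All 3 Anakinra arrays lay below all 3 PBS arrays. The log2 change was -0.35 ± 0.08 (SE, n = 3 per group, 95% interval -0.55 to -0.15), which did not pass (limma adjusted p = 0.121). The difference was -0.40 within slide 1, which held 1 Anakinra and 2 PBS arrays, and -0.34 within slide 2, which held 2 Anakinra arrays and 1 PBS array. Over 19 settings it stayed negative, from -0.68 to -0.29, with adjusted p between 0.0750 and 0.876.

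Socs1, an inhibitor of the Janus kinases themselves and a gene that interferons induce, whose promoter letters are printed above, measured -0.95, -0.82 and -1.39 in Anakinra, against -0.69, -0.64 and -0.79 in PBS. The groups did not overlap, but Anakinra 2 lay only just below PBS 3, and Anakinra 3 lay far below the rest. The change was -0.35 ± 0.16 (SE, 95% interval -0.76 to 0.07; limma adjusted p = 0.385). Without Anakinra 3 it was -0.18 (adjusted p = 0.390).

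Socs3, the feedback inhibitor of signalling through gp130 and STAT3, was at 1.80, 1.74 and 1.48 in Anakinra, against 1.60, 1.60 and 1.60 in PBS. The PBS arrays agreed to within an SD of 0.0018, while the Anakinra arrays lay on both sides of them. The change was 0.07 ± 0.10 (SE, 95% interval -0.18 to 0.32; limma adjusted p = 0.799), and without Anakinra 3 it was 0.17.
Cish, a target of STAT5 whose product blocks STAT5 at its receptors, was at 1.87, 1.96 and 1.74 in Anakinra, against 1.89, 1.87 and 1.86 in PBS. The PBS values again lay inside the Anakinra range. Its change was -0.02 ± 0.08 (SE, 95% interval -0.21 to 0.17; limma adjusted p = 0.955). The difference was 0.0065 within slide 1 and -0.041 within slide 2.

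Of the STAT genes, Stat5a, a mediator of prolactin and growth factor signals, had the change of largest size. It was at -1.62, -1.03 and -1.34 in Anakinra, against -1.86, -1.82 and -1.58 in PBS. Anakinra 1 lay below PBS 3, so the groups overlapped, and Anakinra 2 was the highest of the 6. The change was 0.42 ± 0.17 (SE, 95% interval -0.02 to 0.86; limma adjusted p = 0.327). It was 0.08 within slide 1 and 0.67 within slide 2, and 0.27 without Anakinra 2.

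Stat5b, the close paralog of Stat5a and its neighbour on chromosome 11, was at -0.48, -0.10 and -0.34 in Anakinra, against -0.29, -0.51 and -0.43 in PBS on its brightest probe. The groups overlapped, with Anakinra 2 again the highest (change 0.11 ± 0.12 SE, 95% interval -0.21 to 0.42; limma adjusted p = 0.743). The change was 0.0020 without Anakinra 2 and -0.0050 within slide 1. A second probe, A_51_P281938, gave 0.28 ± 0.18 (SE; limma adjusted p over probes = 0.555). Its change was -0.13 with quantile scaling, 0.02 with normexp background correction, 0.09 without Anakinra 3 and 0.38 without Anakinra 1. The third, A_52_P663027, was too dim to be tested.

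Stat3, the main transducer of interleukin-6 type cytokines in skin, was at 2.38, 2.37 and 2.08 in Anakinra, against 2.39, 2.25 and 2.34 in PBS. This probe, A_51_P201480, has 10 spots on each array, and the SD of log2 intensity over the spots of an array was between 0.0224 and 0.0616. Anakinra 3 lay below the other 5 arrays by more than that. The change was -0.05 ± 0.11 (SE, 95% interval -0.31 to 0.22; limma adjusted p = 0.899), and 0.05 without Anakinra 3. The difference was 0.09 within slide 1 and -0.16 within slide 2. Its other probe, A_52_P569499, was dim and well above background on 1 of 3 Anakinra arrays. It lies 258 bases from the Stat5a probe on the opposite strand, and 3076 bases from the bright Stat3 probe (chromosome 11, mm8 positions of the array design).

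Stat2, the partner of interferon signalling that binds DNA with Irf9, was at -2.80, -2.47 and -2.51 in Anakinra, against -2.70, -2.93 and -2.60 in PBS. The ranges overlapped in part, with 2 of the 3 Anakinra arrays above every PBS array (change 0.15 ± 0.14 SE, 95% interval -0.19 to 0.49; limma adjusted p = 0.653). With quantile scaling the sign turned, to -0.08. The difference was -0.03 within slide 1 and 0.21 within slide 2.

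Stat6 was at 2.48, 2.33 and 2.49 in Anakinra, against 2.24, 2.32 and 2.31 in PBS on its brightest probe, A_52_P114494. The groups were apart, though Anakinra 2 and PBS 2 almost touched, and they overlapped when the percentile was taken over averaged probes. The change was 0.14 ± 0.07 (SE, 95% interval -0.05 to 0.33; limma adjusted p = 0.431), and it was 0.16 within slide 1 and 0.17 within slide 2.
The 3 Stat6 probes did not give 1 sign. The 10-spot probe A_51_P452382, 293 bases upstream of the brightest in mm8, was at -0.66, -0.16 and -0.51 in Anakinra, against -0.68, -0.72 and -0.63 in PBS. Its change was 0.23 ± 0.14 (SE; limma adjusted p over probes = 0.532), with Anakinra 2 far above the rest. Probe A_52_P132761, a further 13294 bases upstream, was at 0.28, -0.01 and -0.58 in Anakinra, against 0.12, 0.07 and 0.17 in PBS. Its change was -0.22 ± 0.23 (SE; limma adjusted p over probes = 0.723), and 0.02 without Anakinra 3.

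**Figure D2:**
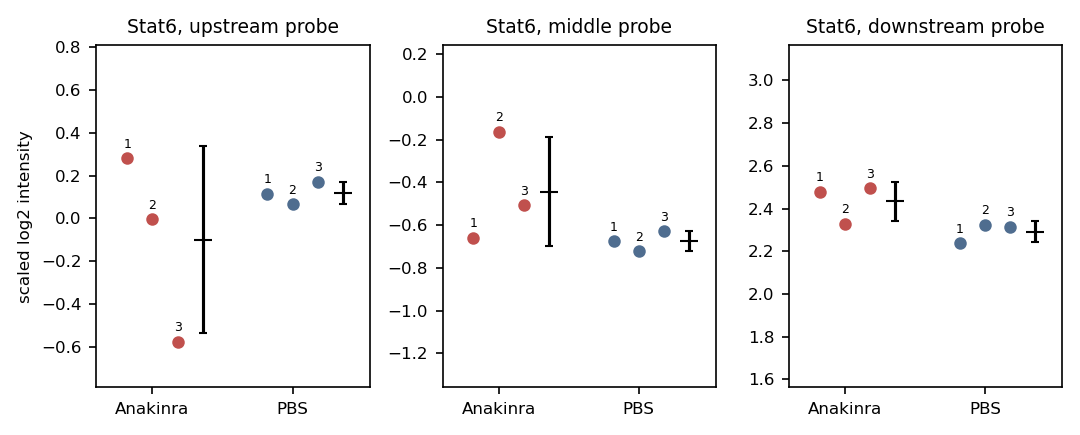
Scaled log2 intensity of the 3 Stat6 probes on 3 Anakinra arrays (red) and 3 PBS arrays (blue), numbered by replicate, with bars for mean ± SD; panels span the same log2 range. The upstream probe (A_52_P132761) is lowest on Anakinra 3, the middle one (A_51_P452382) highest on Anakinra 2, and the downstream one (A_52_P114494) differs least between arrays.

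Tested as probes, 14 of the 15 entered the fit and 0 passed, against 1.11% of 24973 probes in limma, with 1 at an unadjusted p under 0.05. Of the 15, 12 were well above background on all 6 arrays. The dim probes have wide intervals: that of Socs2 A_52_P84037 ran from -2.19 to 1.07 and that of Stat3 A_52_P569499 from -1.35 to 1.94.

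**Figure D3:**
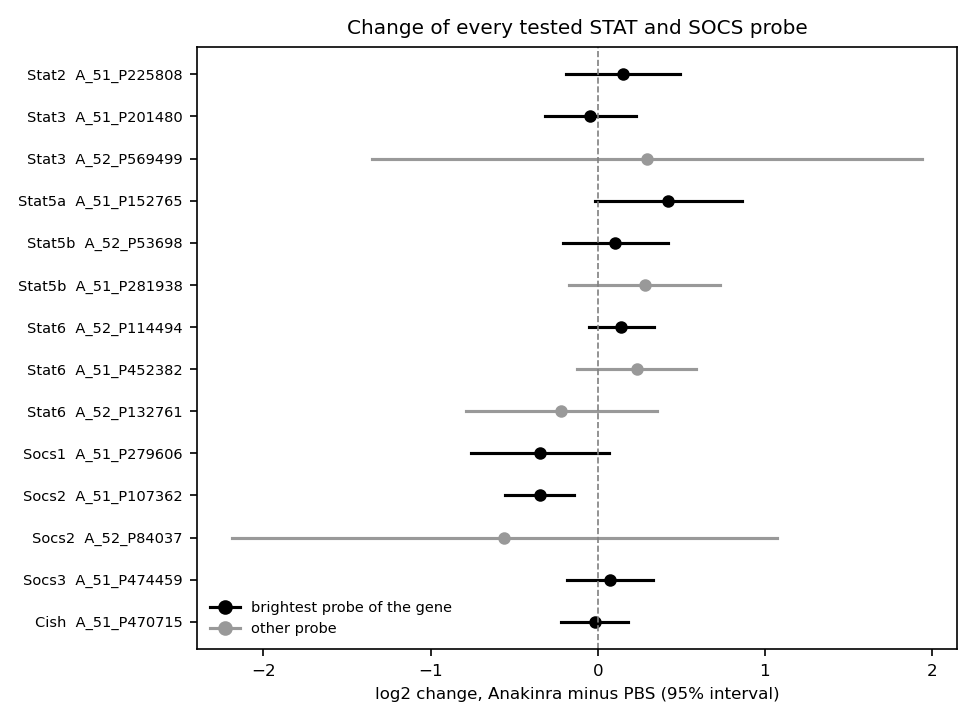
Log2 change (Anakinra minus PBS) with its 95% interval for the 14 tested probes; black marks the brightest probe of a gene and grey any other. The interval of the bright Socs2 probe is the one that leaves out 0.

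The Anakinra arrays differed among themselves more than the PBS arrays did for all 9 genes, where this held for 80.5% of genes. The median SD of the 9 was 0.17 in Anakinra and 0.07 in PBS, beside 0.17 and 0.10 over all genes. Anakinra 3 was the lowest of the 6 arrays for Stat3, Socs1, Socs3 and Cish, as for 33.6% of all genes. Anakinra 2, the array with most probes above background, was the highest for Stat2, Stat5a, Stat5b and Cish, as for 35.8%. The part of array quality in these values was not tested.

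Around the 9 genes, lists of the rest of the pathway were read in the same fit. In that fit 1.77% of all genes passed and 16.1% had an unadjusted p under 0.05 in limma. Of the 4 Janus kinases, which phosphorylate STATs, 0 passed and 0 had an unadjusted p under 0.05, with a median change of 0.09; Jak1 gave -0.13 (limma adjusted p = 0.581). Of the 4 other SOCS-box genes 0 passed and 1 had an unadjusted p under 0.05, Socs4 at -0.21 (limma adjusted p = 0.298), with a list median of 0.16. A list of 9 held PIAS proteins, phosphatases and Sh2b3, most of them known to restrain STATs in the nucleus or remove their phosphates. Of these 9, 0 passed and 2 had an unadjusted p under 0.05. The smallest p was that of Pias3 at 0.22 (limma adjusted p = 0.270), and the median was 0.07.

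Receptors did not pass either: 0 of the 21 tested, with a median of -0.10. In limma 5 had an unadjusted p under 0.05, where 16.1% of all genes did. Il7r, Il20ra, Lepr and Csf3r were not tested. Il13ra1, which pairs with the interleukin-4 receptor to activate STAT6, gave 0.78 ± 0.12 (SE; limma adjusted p = 0.0575) with the groups apart. It stood just outside the threshold and passed in 5 of 19 settings, among them quantile scaling (adjusted p = 0.0486). Ifngr2, named here after its values were seen, went the other way with its groups apart. Its change was -0.41 ± 0.07 (SE, limma adjusted p = 0.0621), and it passed in 1 of 19 settings.

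Of the 10 ligands tested, 2 were higher, 2 lower and 6 did not pass. In limma 4 had an unadjusted p under 0.05, where 16.1% of all genes did. The list median was 0.11, and -0.11 with quantile scaling. The myeloid growth factors Csf2 and Csf3, whose receptors signal through STAT5 and STAT3, fell: Csf2 by 2.34 ± 0.13 (limma adjusted p = 0.00388) and Csf3 by 3.30 ± 0.24 (limma adjusted p = 0.00831). Csf3 was well above background on 2 of 3 Anakinra arrays and entered the test through the PBS arrays, so the size of its change rests partly on signal near background; with normexp background correction it was -2.20. Tslp, an epithelial cytokine that signals through STAT5, rose by 0.83 ± 0.06 (limma adjusted p = 0.00733). Without PBS 2 these 3 no longer passed (adjusted p = 0.0630 for Csf2, 0.0793 for Csf3 and 0.0888 for Tslp), nor did Csf3 and Tslp without PBS 1 (0.0793 for each) or Tslp without PBS 3 (0.0582). Il11, a cytokine of the interleukin-6 type named here after its values were seen, rose by 0.77 ± 0.10 (limma adjusted p = 0.0297). Its call ended with quantile scaling (adjusted p = 0.367), with slide as a block (0.117), with normexp (0.0579) and without any 1 array except Anakinra 2 (0.0693 to 0.214). Il6, Osm, Il4, Il13, Il10, Il20, Il22, Ifng and Ifnb1 were not above background often enough to be tested.

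Target genes of the STATs are also known to answer to other factors. Of 15 genes known as STAT3 targets 1 rose and 0 fell, with a median of -0.08. In limma 3 had an unadjusted p under 0.05, where 16.1% of all genes did. The gene that rose was Timp1, an inhibitor of matrix proteases, at 0.55 ± 0.06 (SE; limma adjusted p = 0.0222), which did not pass with slide as a block (adjusted p = 0.0749) or without any 1 of the 6 arrays (0.0534 to 0.205). The change of largest size in the list was that of Cebpd, a transcription factor of the acute phase named here after its values were seen, at -0.87 ± 0.14 (SE; limma adjusted p = 0.0575). Its groups were apart, and it stood just outside the threshold and passed in 4 of 19 settings. None of 7 genes known as STAT5 or STAT6 targets passed, and 0 had an unadjusted p under 0.05; Bcl6 gave -0.14 (limma adjusted p = 0.439) and the median was 0.04.
The 15 tested genes driven by the STAT2 complex had a median of -0.48, beside 0.01 over all genes, and 3 of them were positive, where 52.3% of all genes were. The median was -0.32 with the mean of a gene's probes, -0.36 with normexp and -0.63 with slide as a block. Of these genes 0 rose, 2 fell and 13 did not pass, and 7 had an unadjusted p under 0.05, where 16.1% of all genes did. Cmpk2, 1 of these 7, and Mx1 were well above background on only 1 of 3 Anakinra arrays. Both entered the test through the PBS arrays and are named here after their values were seen. The Cmpk2 change was -1.26, and -0.40 with normexp, so its size rests partly on signal near background. Bst2, an antiviral membrane protein, fell by 0.73 ± 0.07 (limma adjusted p = 0.0160) and Oasl2, of the oligoadenylate synthetase family, by 1.33 ± 0.17 (limma adjusted p = 0.0311). Adding the slide to the model ended both calls, with limma adjusted p at 0.0751 for Bst2 and 0.121 for Oasl2. Leaving out any 1 array except Anakinra 2 also ended the call of Bst2, with adjusted p between 0.0502 and 0.128, and leaving out any 1 of the 6 did so for Oasl2, between 0.0615 and 0.176. Quantile scaling (0.0712) and array weights (0.0691) ended the call of Oasl2 as well. Of the calls in the pathway lists, those of Tslp, Il11, Timp1, Bst2 and Oasl2 also ended with no filter on dim probes and with each array scaled to its median, while Csf2 and Csf3 passed in both; for Tslp the adjusted p was 0.0684 and 0.876, and the change with median scaling was 0.50. Stat2 itself and Irf9, named here after its values were seen, did not pass (change 0.01 ± 0.11 for Irf9; limma adjusted p = 0.986).

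**Figure D4:**
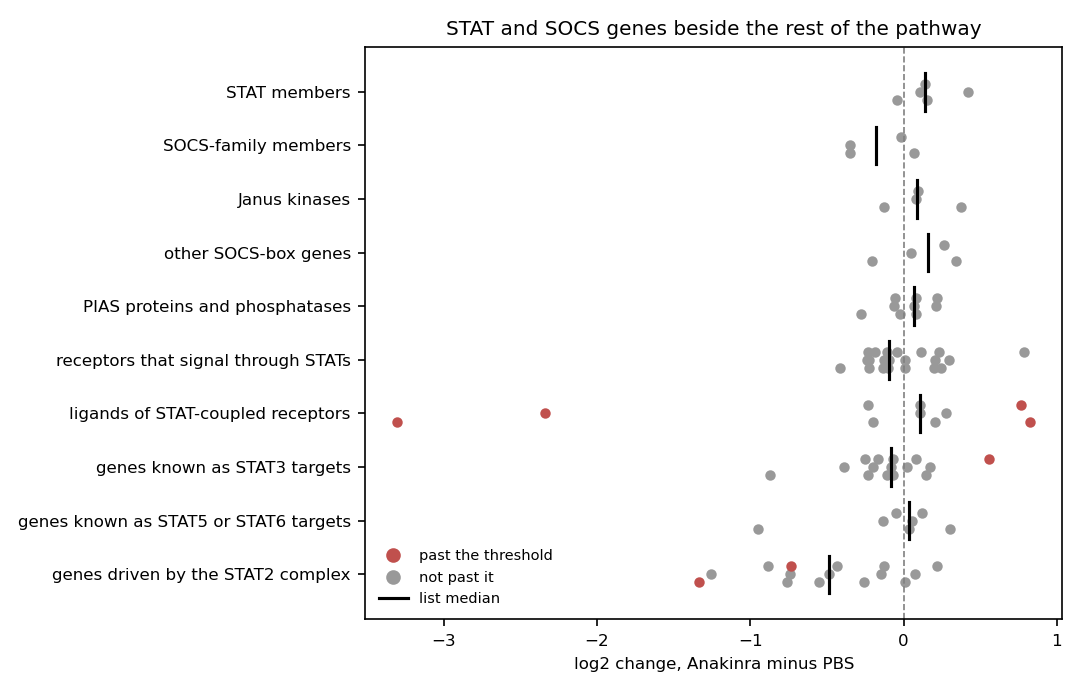
Log2 change (Anakinra minus PBS) of each tested gene of the STAT and SOCS members and of 8 lists of the rest of the pathway; red points passed a limma adjusted p under 0.05, grey points did not, and the black bar is the list median. The STAT and SOCS members lie between -0.35 and 0.42, and the red points are 4 ligands, 1 STAT3 target and 2 genes of the STAT2 complex.

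Markers of other cells were read in the same fit, in which 1.77% of all genes passed. Of 10 fibroblast markers, 5 had an unadjusted p under 0.05 in limma, where 16.1% of all genes did, and 8 did not pass. Higher were 2, the collagen gene Col3a1 and Lum (lumican), named after their values were seen like the keratins above. Adding the slide to the model ended both calls (limma adjusted p = 0.142 for Col3a1 and 0.0551 for Lum). So did leaving out any 1 array for Col3a1 (0.0756 to 0.202), and for Lum quantile scaling (0.378) or leaving out Anakinra 3 (0.0787), PBS 1 (0.114), PBS 2 (0.156) or PBS 3 (0.0972). The Lum change was 1.43, and 0.51 with normexp background correction. Dcn, the gene of decorin, went the other way with its groups apart, at -0.38 ± 0.07 (SE; limma adjusted p = 0.0700, and 0.0413 with only probes above background on all arrays). The 10 fibroblast markers had a summed signal of 13.9 to 15.8 times the 75th percentile in Anakinra and 11.1 to 13.3 in PBS. That sum was mostly signal of Col1a1, Col1a2, Thy1 and Fbln1, none of which passed, and Col3a1 and Lum added little to it. Of 8 melanocyte markers 0 passed and 3 had an unadjusted p under 0.05. All 8 were positive, where 52.3% of all genes were. They summed to 68.5 to 71.9 in Anakinra and 57.6 to 67.2 in PBS, mostly signal of Dct. Of 7 immune cell markers tested 0 passed and 2 had an unadjusted p under 0.05, with sums of 4.11 to 4.24 in Anakinra and 4.11 to 4.59 in PBS. That sum was mostly signal of Cd68 and Lyz2, and Ptprc, Cd3e, Itgam, Cd79a and Laptm5 were not tested. Of 3 endothelial markers tested 0 passed and 2 had an unadjusted p under 0.05, with sums of 1.61 to 1.91 in Anakinra and 2.00 to 2.13 in PBS. This sum was mostly signal of Egfl7. Kdr was well above background on 1 of 3 Anakinra arrays, and Cdh5 and Tek were not tested. The part of these cells in the STAT and SOCS values was not tested.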

How the data were processed

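In all, 6 one-colour Agilent arrays were analysed, 3 Anakinra and 3 PBS, grouped by the treatment label. Per the file headers, the deposited scanner intensity was background-subtracted by the authors with Feature Extraction 9.5.3.1 and not normalised between arrays; the well-above-background and outlier flags are other columns of the same files, and no spot was saturated. A value table, deposited by the authors as log2 values, equalled the log2 scanner intensity shifted by 1 constant per array, and how those constants were chosen is unknown here.

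Each log2 intensity was scaled to the array's 75th percentile over non-control spots without an outlier flag. This set of spots was settled after the percentile had been run over averaged probes and over all spots; it was chosen to match how these data had been processed before, and the closing section compares all 3. Flagged spots were left out and spots of a probe averaged. A probe was tested where every array of 1 group or both showed it well above background and each group had 2 values or more. limma 3.58.1 under R 4.3.3 (lmFit, eBayes, two-sided) compared the groups, once with 1 row per gene and once with 1 per probe. The fit was tested on simulated data with the same spread in both groups, so unequal spreads were not covered. RefSeq genes of GRCm38.p6 named most probes, while 8148 of 41174 kept the name in the file, and probe positions are mm8. Named were all 9 genes with every probe and, from each list, up to 3 genes past the threshold by smallest p, or the 1 with the smallest p where none passed. The further rule on genes like a member past the threshold named none. The genes and lists were chosen with earlier results of these data known. No protein sequences were used here.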

Additional observations from a re-analysis of the deposited data

How the results depend on the processing

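Over 19 settings of scaling, background correction, filter, probe choice, block, weights, source table and left-out arrays, that of the report included, none of the 9 genes and none of their probes passed the limma threshold; probes were not tested with the mean of a gene's probes. Scaling each array to its median moved the median of all genes to -0.32 and gave Stat2 -0.18, Stat5b -0.22, Stat6 -0.19 and Socs3 -0.26, each opposite in sign to the report; relative to that median they were 0.14, 0.09, 0.13 and 0.06. Quantile scaling turned Stat2 (-0.085) and Cish (0.020), the deposited table turned Stat3 (0.012) and Cish (0.039), and array weights turned Stat3 (0.026), as did the mean of its probes (0.13). Leaving out 1 array gave Stat3 from -0.095 to 0.052 and Cish from -0.066 to 0.040, positive for both without Anakinra 3. The cause was not tested. Genes higher and lower numbered 6 and 42 with median scaling, 7 and 29 with no filter on dim probes, where the median of all genes was 0.16, 338 and 241 with only probes above background on all arrays, and 23 and 41 with slide as a block. With the replicate block, 0 were higher and 0 lower in limma, with 1772 at an unadjusted p under 0.05. Deviations of same-numbered arrays correlated at 0.384, -0.477 and -0.211, and those of other pairs at -0.643 to 0.678. With 3 arrays per group these values cannot show whether the numbers pair the samples, and the labels do not say. Leaving out 1 array gave 1 to 96 higher and 7 to 136 lower. Chosen after seeing the data were the 2 other sets of spots behind the 75th percentile: averaged probes gave 155 higher and 138 lower, with Stat6 overlapping between groups, and all spots gave 165 and 128, with 1 receptor past the threshold (Il13ra1, adjusted p = 0.0498). Only 3 arrays per group limit the precision, and for the dim probes so does signal near background.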
